A study of Mus musculus with 48 samples.

Results

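The 10 genes described here encode the mouse machinery for showing peptides on the cell surface through the major histocompatibility complex (MHC), and their RNA was compared among 3 lines of R1 mouse embryonic stem cells. They were taken by symbol, without a threshold on their values but with earlier results of these data known, as the rows of the expression table named H2-K1, H2-D1, B2m, Tap1, Tap2, Tapbp, Psmb8, Psmb9, H2-Eb1 and Cd74, which are 10 of its 48321 rows. R1 is a male embryonic stem cell line of strain 129SV, and all lines were grown in 2i+LIF, a serum-free medium with inhibitors of MEK and GSK3b, and were plated on fibronectin before collection. The wild-type line (WT), the Mll3/4 dKO line (dKO) and the Mll3/4 dCD line (dCD) gave 3 polyadenylated RNA libraries each. Mll3 (gene Kmt2c) and Mll4 (gene Kmt2d) are histone methyltransferases that act at enhancers, and dKO has both knocked out, while in dCD both are catalytically deficient. Each genotype is 1 line, and nothing states that its replicates came from separate cultures, so clone and genotype cannot be told apart and p-values measure only the spread between libraries, which may be technical.

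MHC class I molecules pair a heavy chain, such as the products of H2-K1 and H2-D1, with the light chain beta-2-microglobulin, the product of B2m. Cytosolic proteins are cut to peptides by the proteasome, in which the products of Psmb8 and Psmb9 replace constitutive subunits after interferon. The transporter made of Tap1 and Tap2 carries the peptides into the endoplasmic reticulum, and tapasin (Tapbp) holds the empty heavy chain at the transporter until a peptide binds. Class II molecules, which include the beta chain H2-Eb1, are mainly known from B cells, macrophages and dendritic cells, where the invariant chain Cd74 guards them on the way to the endosome. Embryonic stem cells are known for low class I surface levels.

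The promoter letters of 5 genes that moved in different directions are shown because 3 of them share an ordered pair of motifs. They are the 250 reference bases before a RefSeq transcript start, 5′ to 3′ on the strand of the gene, in build GRCm38.p6, which is of strain C57BL/6J and not of strain 129SV, so the letters of these cells were not read. The windows are chr17:34000334-34000583 on the minus strand for H2-K1 (the downstream of its 2 RefSeq starts), chr17:35262844-35263093 on the plus strand for H2-D1, chr2:122147437-122147686 on the plus strand for B2m, chr17:34187306-34187555 on the plus strand for Tap1 and chr17:34305617-34305866 on the plus strand for H2-Eb1. Capitals mark 4 motifs searched on both strands: GAANNGAAA (an interferon response core), GGGNNTTCC (a kappaB site), CCAAT (bound by NF-Y) and TGACG (the core of a cyclic AMP response element).
H2-K1: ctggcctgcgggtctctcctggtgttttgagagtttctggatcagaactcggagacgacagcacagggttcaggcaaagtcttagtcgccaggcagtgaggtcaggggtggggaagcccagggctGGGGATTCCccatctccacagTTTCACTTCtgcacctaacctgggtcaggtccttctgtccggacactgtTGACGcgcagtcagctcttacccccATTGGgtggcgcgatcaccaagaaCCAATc
H2-D1: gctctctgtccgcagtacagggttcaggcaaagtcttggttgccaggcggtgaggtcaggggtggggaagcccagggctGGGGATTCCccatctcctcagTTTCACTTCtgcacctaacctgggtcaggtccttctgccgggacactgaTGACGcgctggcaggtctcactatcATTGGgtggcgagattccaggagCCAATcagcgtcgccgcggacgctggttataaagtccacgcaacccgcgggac
B2m: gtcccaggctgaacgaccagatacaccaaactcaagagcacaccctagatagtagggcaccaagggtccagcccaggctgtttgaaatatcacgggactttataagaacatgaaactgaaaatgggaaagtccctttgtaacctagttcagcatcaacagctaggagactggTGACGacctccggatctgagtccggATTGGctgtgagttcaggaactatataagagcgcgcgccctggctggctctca
Tap1: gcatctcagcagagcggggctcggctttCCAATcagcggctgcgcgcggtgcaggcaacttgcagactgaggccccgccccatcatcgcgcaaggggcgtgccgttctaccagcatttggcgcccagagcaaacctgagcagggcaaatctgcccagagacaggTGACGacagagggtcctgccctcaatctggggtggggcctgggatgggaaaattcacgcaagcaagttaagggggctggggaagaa
H2-Eb1: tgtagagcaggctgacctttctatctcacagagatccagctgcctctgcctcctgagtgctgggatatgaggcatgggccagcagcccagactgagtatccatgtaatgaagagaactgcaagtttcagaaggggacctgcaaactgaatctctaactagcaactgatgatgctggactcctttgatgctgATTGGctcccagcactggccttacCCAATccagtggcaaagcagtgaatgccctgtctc
In the H2-K1 window, TGACG began 55 bases and ATTGG, the reverse complement of CCAAT, began 30 bases before the start. The same pair lay at 101 and 76 bases in H2-D1 and at 78 and 53 bases in B2m, always with starts 25 bases apart. That spacing was present in 30 of 32851 windows of all genes (0.0913%). They belonged to 26 genes, among them H2-K1, H2-D1 and B2m themselves and the class I gene H2-M3. The spacing searched was that of H2-K1, H2-D1 and B2m, so its rarity is a description and not a test. H2-K1 and H2-D1 also held the interferon core on the minus strand (104 and 150 bases before the start), which 6.31% of all windows held, and the kappaB letters (125 and 171 bases), which 4.98% held. Their windows matched at 177 of 204 aligned positions (86.8%). B2m matched neither pattern, but its window holds gaaactgaaa and ggaaagtccc. These are the interferon and kappaB letters with a longer gap, the latter on the minus strand, which the search did not mark. The lack of capitals in B2m thus does not show that such sites are absent. CCAAT, found in Tap1 and H2-Eb1, stood in 33.8% of all windows. TGACG, found in Tap1 but not in H2-Eb1, stood in 17.8%, so these letters are common. The Tap1 and Psmb9 starts lie 226 bases apart on opposite strands, and their windows share 225 bases. Windows were found for 8 of the 10 genes, without Tap2 and Cd74, and a match of letters is a description, not a site.

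The genes moved in opposite directions. Levels are in TPM, which scales reads by gene length and library total, and a gene was tested where it reached 1 TPM in at least 3 of the 9 libraries. Of the 10 genes, 7 were tested among 16179, and Tap2, Psmb8 and Psmb9 were below that minimum. Calls use limma on log2(TPM + 1) with Benjamini-Hochberg adjusted p below 0.05, and log2 fold changes are on that scale, which understates changes of low genes. In dKO against WT, H2-K1, B2m and Tap1 rose, and H2-D1, Tapbp, H2-Eb1 and Cd74 fell, beside calls in 71.8% of all tested genes (43.4% up, 28.4% down). In dCD against WT the same 3 rose, H2-D1 and H2-Eb1 fell, and Tapbp and Cd74 were not called, beside calls in 58.4% of all genes (28.9% up, 29.5% down). A call was thus common, and 82.6% of tested genes differed among the 3 lines by limma's moderated F test. At least 2-fold changes were rarer: in dKO 6 of the 7 passed it, beside 13.9% of all genes, with 2 up (6.01% of all genes) and 4 down (7.89%). Tap1 passed with a log2 fold change of 1.003, and H2-K1 missed with 0.986. With median-ratio scaling Tap1 had 0.919, and with a pseudocount of 0.1 H2-K1 had 1.021, so this count depends on the processing. In dCD 2 of the 7 passed it, beside 6.94%, with B2m up (4.62%) and H2-Eb1 down (2.32%). The median log2 fold change of the 7 genes was -1.04 in dKO and 0.16 in dCD, beside 0.10 and -0.01 over all tested genes. In bulk RNA, fewer cells with a transcript and less transcript per cell cannot be told apart.

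**Figure D1:**
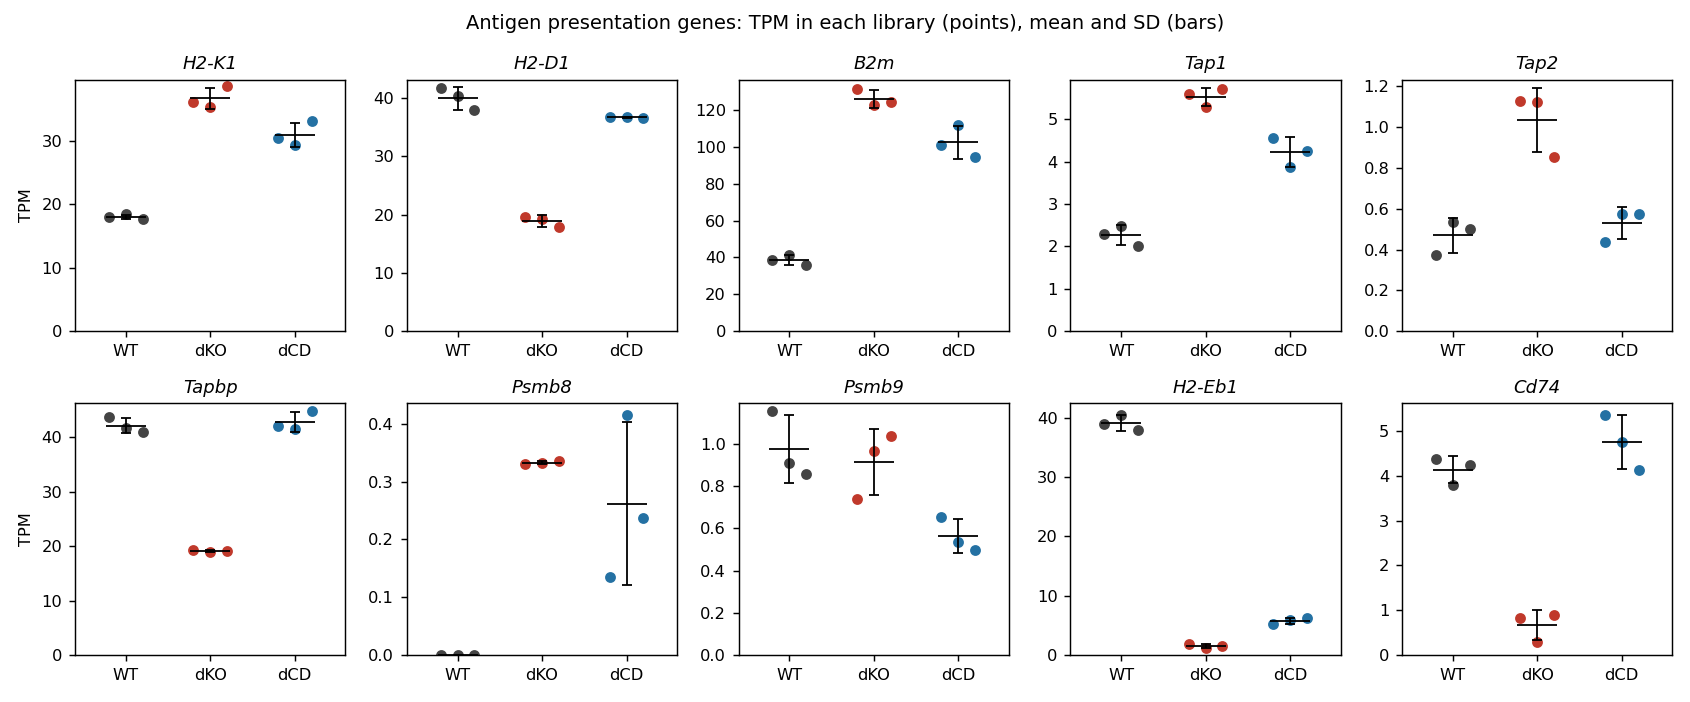
TPM of each of the 10 genes (a panel each, vertical axis in TPM) in the 9 libraries, grouped by line, with points for libraries and bars for the mean and SD of 3 libraries. B2m stands at 36.0 to 41.3 TPM in WT and 123 to 132 TPM in dKO, and H2-Eb1 at 37.8 to 40.4 TPM in WT and 1.20 to 1.85 TPM in dKO.

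B2m, whose product every classical class I molecule needs, rose most of the 7. It measured 38.7, 41.3 and 36.0 TPM in WT, 132, 123 and 124 TPM in dKO and 101, 112 and 94.4 TPM in dCD. All dKO libraries stood above all dCD libraries, and these above all WT libraries. The mean rose from 38.7 ± 2.66 TPM to 126 ± 4.82 TPM in dKO (SD, n = 3 libraries each), 3.26-fold, with a log2 fold change of 1.68 (95% interval 1.54 to 1.82, limma adjusted p = 3.91e-09). In dCD the mean was 102 ± 8.78 TPM, 2.65-fold, with a log2 fold change of 1.38 (1.24 to 1.52, limma adjusted p = 4.33e-08).

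H2-K1, a classical class I heavy chain, rose in both mutant lines. It measured 18, 18.4 and 17.8 TPM in WT, 36.3, 35.4 and 38.6 TPM in dKO and 30.5, 29.4 and 33.1 TPM in dCD. The 3 lines did not overlap, with WT lowest and dKO highest. The log2 fold change was 0.99 in dKO (95% interval 0.88 to 1.09, limma adjusted p = 2.62e-08), a TPM ratio of 2.04, and 0.75 in dCD (0.64 to 0.85, limma adjusted p = 5.12e-07), a ratio of 1.72.

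H2-D1, the other classical heavy chain, went the opposite way. It measured 41.8, 40.3 and 37.9 TPM in WT, 19.7, 19.3 and 17.8 TPM in dKO and 36.8, 36.7 and 36.6 TPM in dCD. The dKO libraries stood far below the rest, while the dCD libraries lay just under the lowest WT library. The log2 fold change was -1.04 in dKO (95% interval -1.14 to -0.94, limma adjusted p = 1.01e-08), 2.11-fold lower. In dCD it was -0.12 (-0.22 to -0.02, limma adjusted p = 0.0415), and this call was lost under 10 of 17 alternatives, with adjusted p from 0.0144 to 0.146. It was lost without WT replicate 1 (0.146) or 2 (0.1), without dKO replicate 2 (0.0517), and without dCD replicate 1 (0.0826), 2 (0.0811) or 3 (0.089).

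The balance of the 2 heavy chains differed among the lines more than their sum did. The ratio of H2-K1 to H2-D1 TPM was 0.431, 0.457 and 0.469 in WT, 1.84, 1.84 and 2.17 in dKO and 0.828, 0.80 and 0.906 in dCD. H2-D1 RNA was the more abundant of the pair in every WT and dCD library, and H2-K1 RNA in every dKO library. The sum of both was 58.1 ± 2.14 TPM in WT, 55.7 ± 0.891 in dKO and 67.7 ± 1.81 in dCD (SD, n = 3 libraries each). The exact permutation p of the heavy-chain ratio was 0.1 in each of the 3 pairs of lines, the smallest that 3 against 3 allows, and 0.112 after adjustment over 9 such tests. For the sum it was 0.3 in dKO against WT, and 0.1 in both dCD against WT and dKO against dCD, since the dCD libraries (66.1 to 69.7 TPM) stood above every WT library (55.7 to 59.7 TPM) and every dKO library (54.7 to 56.5 TPM). B2m relative to that sum stood at 0.648 to 0.703 in WT, 2.20 to 2.35 in dKO and 1.35 to 1.69 in dCD. H2-K1 and H2-D1 are close paralogs in a multigene family, and how reads with several matches were counted is not given, so the split of reads between them is uncertain.

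Tap1, the first subunit of the peptide transporter, rose in both mutant lines. It measured 2.30, 2.47 and 2.01 TPM in WT, 5.59, 5.28 and 5.70 TPM in dKO and 4.56, 3.86 and 4.24 TPM in dCD. The lines did not overlap, in the same order as for H2-K1 and B2m. The log2 fold change was 1.0 in dKO (95% interval 0.82 to 1.18, limma adjusted p = 1.12e-06), a TPM ratio of 2.44, and 0.68 in dCD (0.50 to 0.86, limma adjusted p = 4.01e-05), a ratio of 1.87.

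Tap2, the partner subunit, was near 1 TPM or below. It measured 0.374, 0.536 and 0.499 TPM in WT, 1.13, 1.12 and 0.853 TPM in dKO and 0.439, 0.573 and 0.577 TPM in dCD, from 11 to 42 reads per library. The dKO libraries stood above all others, and dCD overlapped WT. In a fit of all genes with any read, which called 39.8%, 31.3% and 38.1% of 31900 genes in dKO against WT, dCD against WT and dKO against dCD, the limma adjusted p was 0.0025, 0.702 and 0.00568.

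Tapbp, the tapasin gene, fell in dKO and was at the WT level in dCD. It measured 43.7, 41.7 and 41.0 TPM in WT, 19.3, 18.8 and 19.2 TPM in dKO and 42.0, 41.6 and 44.9 TPM in dCD. The dKO libraries were far below the rest, and WT and dCD overlapped. The log2 fold change was -1.10 in dKO (95% interval -1.19 to -1.02, limma adjusted p = 1.94e-09), 2.21-fold lower. In dCD it was 0.02 (-0.06 to 0.11, limma adjusted p = 0.639). That interval reflects only the spread between libraries and does not show equality.

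Psmb8 and Psmb9, the inducible proteasome subunits, were both under the minimum for testing, and Psmb8 was barely detected. Psmb8 was listed at 0 TPM with 0 reads in each WT library, where 3 reads would be 0.0889 to 0.172 TPM, and had 7, 9 and 8 reads in dKO and 4, 11 and 11 reads in dCD. Its dKO levels were 0.330, 0.333 and 0.337 TPM and its dCD levels 0.135, 0.415 and 0.237 TPM. Every mutant library thus held more Psmb8 reads than the WT libraries, with a limma adjusted p of 0.00158 in dKO and 0.0081 in dCD in the fit of all genes with any read.

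Psmb9 measured 1.16, 0.909 and 0.859 TPM in WT, 0.741, 0.967 and 1.04 TPM in dKO and 0.655, 0.536 and 0.499 TPM in dCD. The dKO libraries overlapped WT, and the dCD libraries lay below both. Its limma adjusted p in that fit was 0.799 in dKO, 0.0314 in dCD and 0.0475 between the mutant lines. Although Tap1 and Psmb9 share their promoter window, Tap1 rose in dCD, while Psmb9 lay lower there, on 19 to 41 reads per library.

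H2-Eb1, the beta chain of a class II molecule, had the largest change of the 7 tested genes in both mutant lines on the scale of the fit. It measured 39.0, 40.4 and 37.8 TPM in WT, 1.85, 1.20 and 1.56 TPM in dKO and 5.21, 5.84 and 6.22 TPM in dCD. In WT its level was thus close to those of H2-D1, B2m and Tapbp, and the 3 lines were far apart. The mean fell from 39.1 ± 1.3 TPM to 1.54 ± 0.33 TPM in dKO (SD, n = 3 libraries each), 25.4-fold, with a log2 fold change of -3.99 (95% interval -4.20 to -3.78, limma adjusted p = 1.17e-10). In dCD it fell to 5.76 ± 0.508 TPM, 6.78-fold, with a log2 fold change of -2.57 (-2.78 to -2.36, limma adjusted p = 7.55e-09).

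**Figure D2:**
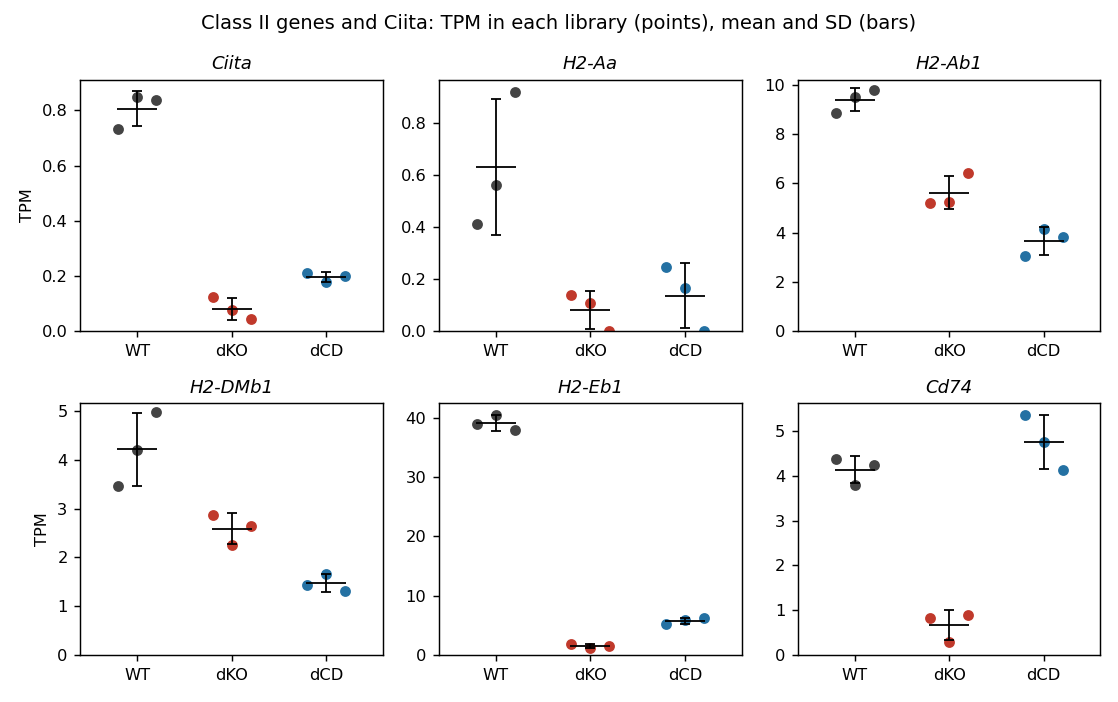
TPM of H2-Eb1, Cd74 and other class II genes in the 9 libraries on a vertical axis in TPM, with points for libraries and bars for the mean and SD of 3 libraries. H2-Eb1 is low in both mutant lines, Cd74 only in the dKO libraries among the 9, and H2-Ab1 lowest in dCD at 3.04 to 4.16 TPM.

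Cd74, the invariant chain, fell in dKO and was not called in dCD. It measured 4.37, 3.80 and 4.23 TPM in WT, 0.824, 0.287 and 0.899 TPM in dKO and 5.36, 4.76 and 4.14 TPM in dCD. The dKO libraries, with 9, 4 and 11 reads, stood below all others, while WT and dCD overlapped. The log2 fold change in dKO was -1.64 (95% interval -1.97 to -1.31, limma adjusted p = 2.79e-06) for a 6.17-fold lower mean TPM, and it was -2.58 with a pseudocount of 0.1 and -2.81 with voom on recovered reads. In dCD it was 0.16 (-0.17 to 0.49, limma adjusted p = 0.378).

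Ciita, the master activator of class II genes, was under the minimum for testing. It measured 0.734, 0.849 and 0.837 TPM in WT, 0.123, 0.0770 and 0.0438 TPM in dKO and 0.211, 0.177 and 0.202 TPM in dCD. The WT libraries, with 28 to 55 reads, stood above all mutant libraries, with 2 to 18 reads. In the fit of all genes with any read, the limma adjusted p was 5.57e-06 in dKO, 4.43e-05 in dCD and 0.0636 between the mutant lines.

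The neighbouring class II chains had lower levels. H2-Ab1, a beta chain, measured 8.87, 9.51 and 9.79 TPM in WT, 5.21, 5.25 and 6.40 TPM in dKO and 3.04, 4.16 and 3.82 TPM in dCD. It fell in both mutant lines, with a log2 fold change of -0.65 in dKO (limma adjusted p = 0.000181) and -1.16 in dCD (limma adjusted p = 4.7e-06), and its order of dCD below dKO was the reverse of that of H2-Eb1. H2-Aa, its alpha partner, had 6 to 13 reads in WT, 0 to 2 in dKO and 0 to 5 in dCD, and the row H2-Ea-ps, which the reference annotation gives as the transcribed pseudogene H2-Ea, was listed at 0 in all 9 libraries.

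Markers of leukocytes, which carry class II molecules, were near 0 or low. Ptprc, the common leukocyte antigen, was at most 0.00702 TPM in any library, and Itgax, a dendritic cell integrin, was at 0 in all 9. Of 16 macrophage or dendritic cell markers, 5 reached 1 TPM in any library, and the list summed to 10.5 to 11.1 TPM in WT, 5.53 to 6.7 in dKO and 8.34 to 8.67 in dCD. Of 13 lymphocyte markers, 5 reached 1 TPM, with sums of 31.1 to 32.1, 15.5 to 17.2 and 25.6 to 27.3 TPM, of which Lck, a kinase of T cells, made up 18.7 to 19.7 TPM in WT. The lymphocyte and the macrophage sums were thus lower in dKO and, by less, in dCD. H2-Eb1 was lower in both mutant lines too, while Cd74 was lower in dKO and not called in dCD. The part of these markers in the H2-Eb1 and Cd74 results was not tested.

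The direct comparison of the mutant lines put dKO farther from WT than dCD for each of H2-K1, B2m, Tap1, H2-D1 and H2-Eb1. In dKO against dCD each of the 7 was called, 3 upward and 4 downward, beside calls in 69.3% of all genes (42.3% up, 27% down). At least 2-fold, 0 were higher (3.60% of all genes) and 3 were lower (7.36%), in all 3 of the 7 beside 11% of all genes. The log2 difference was 0.30 for B2m (limma adjusted p = 0.00173), 0.32 for Tap1 (limma adjusted p = 0.00437) and 0.24 for H2-K1 (limma adjusted p = 0.00121). With median-ratio scaling it was 0.19 for B2m and 0.14 for H2-K1, both still called. The genes that were lower in dKO differed more, by -0.92 for H2-D1 (limma adjusted p = 3.25e-08), -1.12 for Tapbp (limma adjusted p = 2.16e-09) and -1.42 for H2-Eb1 (limma adjusted p = 3.1e-07). For Cd74 it was -1.80 (limma adjusted p = 1.65e-06), and -2.77 with a pseudocount of 0.1. An order of WT, dCD and dKO with all 3 steps called upward, as in H2-K1, B2m and Tap1, was found in 10.7% of tested genes, and the downward order of H2-Eb1 in 8.18%. H2-D1 had that downward order too, but its step from WT to dCD is the call that was lost under 10 of 17 alternatives. These comparisons share libraries, so their values are set side by side and not correlated.

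**Figure D3:**
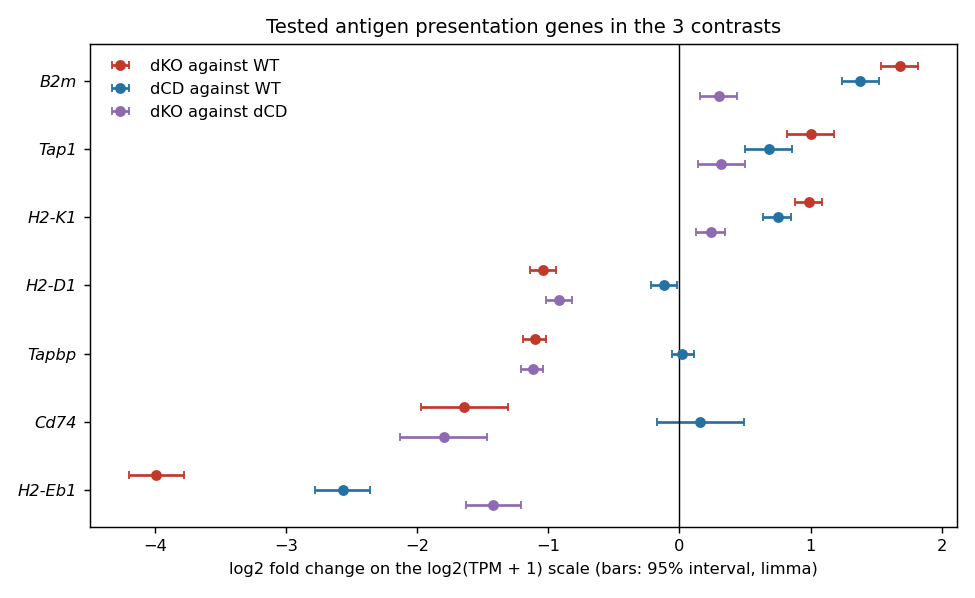
Log2 fold changes on the log2(TPM + 1) scale (horizontal axis) of the 7 tested genes in the 3 comparisons, with 95% intervals from the limma fit as bars. B2m lies at 1.68 and 1.38 against WT, and Tapbp at -1.10 in dKO and 0.02 in dCD.

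Other class I heavy chains and class I-like genes moved in both directions. Over all tested genes, against which each list below is set, 43.4% rose and 28.4% fell in dKO (median log2 fold change 0.10) and 28.9% rose and 29.5% fell in dCD (median -0.01). Of 27 in the table, 19 were tested, of which 8 rose and 6 fell in dKO (42.1% and 31.6%, near the shares of all genes), with a median log2 fold change of 0.19. In dCD 7 rose and 3 fell (36.8% and 15.8%), with a median of 0.12. At least 2-fold, 6 of the 19 rose and 2 fell in dKO, beside 6.01% and 7.89% of all genes. In dCD 0 rose and 0 fell at least 2-fold, beside 4.62% and 2.32%. H2-T22, a nonclassical class I gene, measured 0.80, 4.76 and 2.38 mean TPM in WT, dKO and dCD, with log2 fold changes of 1.68 (limma adjusted p = 6.07e-08) and 0.90 (limma adjusted p = 1.38e-05). H2-M3, which presents formylated peptides and carries the spaced promoter pair, measured 0.858, 3.91 and 2.24 mean TPM, with log2 fold changes of 1.39 and 0.80, both called, and was named after its values were seen. Fcgrt, the neonatal Fc receptor, which also pairs with the B2m product, fell from 23.3 to 2.55 mean TPM in dKO (-2.78, limma adjusted p = 9.31e-11) and to 16.8 in dCD. Raet1d, a ligand of the natural killer receptor NKG2D, rose from 2.17 to 10.5 mean TPM in dKO (1.86, limma adjusted p = 9.7e-09) and to 3.35 in dCD. H2-M5 was the most abundant of those named, at 86.4, 57.1 and 98.7 mean TPM, and fell in dKO by 0.59 on the log2 scale. Of 19 tested genes that carry the spaced pair of promoter motifs, 10 rose, 5 fell and 4 were not called in dKO. Over all tested genes 43.4% rose and 28.4% fell. The 19 include H2-K1, H2-D1 and B2m, from which the spacing was taken. With H2-M3 these make 4 class I or B2m carriers, of which 3 rose and 1 fell in both dKO and dCD. A link of the pair to direction was not tested.

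Genes of peptide loading and trimming moved by small amounts. Of 14 tested, 7 rose and 3 fell in dKO (50.0% and 21.4%, beside 43.4% and 28.4% of all genes), with a median log2 fold change of 0.12 beside 0.10. In dCD 9 rose and 3 fell (64.3% and 21.4%, beside 28.9% and 29.5%), with a median of 0.17 beside -0.01. Calr, a chaperone of the loading complex, measured 952, 807 and 1060 mean TPM in WT, dKO and dCD, and fell in dKO by 0.24 on the log2 scale. Pdia3, the disulfide partner of tapasin in that complex, measured 462, 482 and 605 mean TPM and rose in dCD by 0.39. Uggt1, which sends misfolded glycoproteins back to the chaperones, fell in dKO by 0.58 and so stood nearest to Tapbp among these examples.

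Proteasome genes other than Psmb8 and Psmb9 moved by small amounts. Of 6 immunoproteasome partners and activators tested, 3 rose and 1 fell in dKO (50.0% and 16.7%, beside 43.4% and 28.4% of all genes), with a median log2 fold change of 0.20 beside 0.10. In dCD 2 rose and 1 fell (33.3% and 16.7%, beside 28.9% and 29.5%), with a median of 0.03 beside -0.01. Psmb10, the remaining inducible subunit, measured 24.5, 33.0 and 25.9 mean TPM in WT, dKO and dCD, well above its partners Psmb8 and Psmb9, with a log2 fold change of 0.42 in dKO (limma adjusted p = 3.73e-05). Psme1, part of the proteasome activator PA28, measured 69.5, 93.1 and 73.4 mean TPM, and 0.42 in dKO (limma adjusted p = 2.46e-07). Of 14 subunits of the constitutive core, 9 rose and 0 fell in dKO (64.3% up, beside 43.4% of all genes), with a median of 0.17, and 11 rose and 0 fell in dCD (78.6% up, beside 28.9%), with a median of 0.16. Psmb5, the constitutive counterpart of Psmb8, measured 353, 447 and 370 mean TPM, so its level per length was far above that of Psmb8 in every line.

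Class II pathway genes other than H2-Eb1 and Cd74 had more falls than rises in dKO. Of 13 in the table, 6 were tested, of which 1 rose and 4 fell in dKO (16.7% and 66.7%, beside 43.4% and 28.4% of all genes), with a median log2 fold change of -0.33 beside 0.10. In dCD 2 rose and 3 fell (33.3% and 50.0%, beside 28.9% and 29.5%), with a median of -0.46 beside -0.01. H2-DMb1, a chain of the class II peptide exchange factor, measured 4.21, 2.58 and 1.47 mean TPM in WT, dKO and dCD, with log2 fold changes of -0.53 (limma adjusted p = 0.0022) and -1.07 (limma adjusted p = 2.71e-05). Ifi30, a lysosomal thiol reductase, fell mainly in dCD, at 245, 225 and 123 mean TPM and -0.99 (limma adjusted p = 3.43e-09). Lgmn, a lysosomal protease that cuts the invariant chain, fell in dKO, at 68.1, 40.8 and 75.7 mean TPM and -0.73 (limma adjusted p = 3.49e-08).

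**Figure D4:**
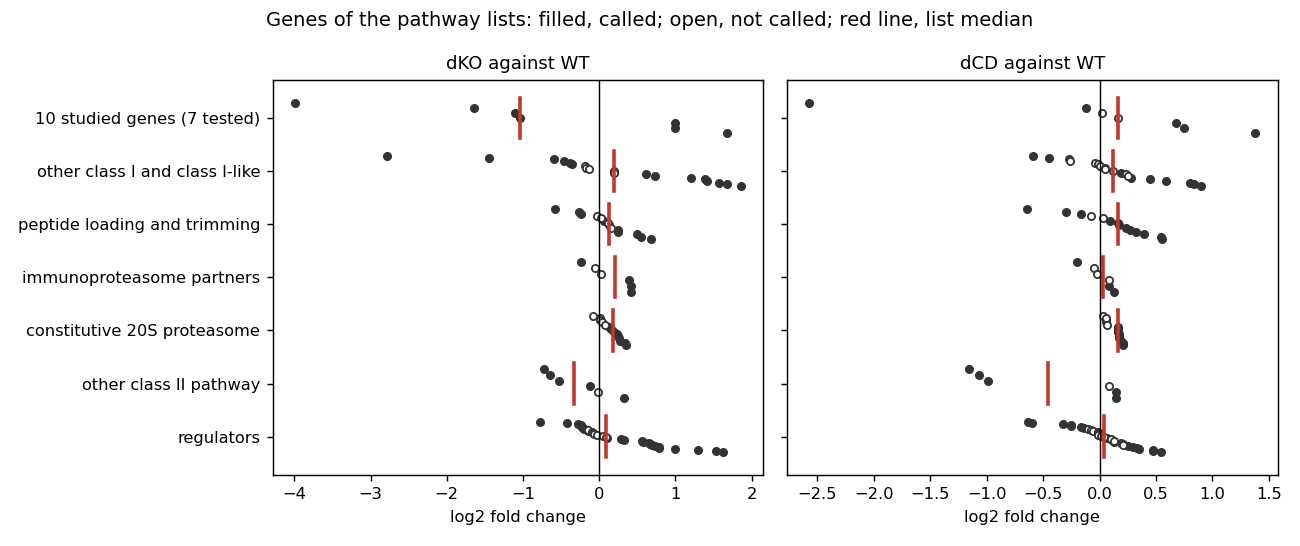
Log2 fold changes on the log2(TPM + 1) scale of the tested genes of each pathway list (a point each), against WT in dKO and in dCD, with a red line at the list's median, filled points for called genes, open points for the others and a different horizontal scale in each panel. In dKO, class I-like genes lie from Fcgrt at -2.78 to Raet1d at 1.86 and class II genes from Lgmn at -0.73 to Ctsl at 0.33, while genes of the constitutive proteasome core lie near their medians of 0.17 and 0.16.

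Regulators of MHC transcription included rises and falls. Of 34 in the table, 31 were tested, of which 15 rose and 9 fell in dKO (48.4% and 29.0%, near the 43.4% and 28.4% of all genes), with a median log2 fold change of 0.09 beside 0.10. In dCD 12 rose and 7 fell (38.7% and 22.6%, beside 28.9% and 29.5%), with a median of 0.04 beside -0.01. At least 2-fold, 4 of the 31 rose and 0 fell in dKO, beside 6.01% and 7.89% of all genes. In dCD 0 rose and 0 fell at least 2-fold, beside 4.62% and 2.32%. Irf1, an interferon-induced activator of class I genes, measured 16.3, 14.0 and 16.8 mean TPM in WT, dKO and dCD and fell slightly in dKO (-0.21, limma adjusted p = 0.00263). Nfkb1, a subunit of NF-kappaB, rose from 11.0 to 33.5 mean TPM in dKO (1.53, limma adjusted p = 3.07e-10) and measured 12.0 in dCD. Nlrc5, the class I activator related to Ciita, had 1 to 8 reads per library, and its limma adjusted p in the fit of all genes with any read was 0.278 in dKO and 0.451 in dCD.

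Of the 10 genes, 8 lie in the MHC region of chromosome 17, with B2m on chromosome 2 and Cd74 on chromosome 18. The stretch from Daxx to Gabbr1 in the order of the reference annotation held 110 tested genes, of which 5 are of the 10 and 105 are not. Of the 105, 43 rose and 39 fell in dKO, beside 43.4% and 28.4% of all genes. In dCD 25 of the 105 rose and 39 fell, beside 28.9% and 29.5%. The median log2 fold changes of the 105 were 0.07 in dKO and -0.04 in dCD, beside 0.10 and -0.01 over all genes. At least 2-fold, 5 of the 105 rose and 12 fell in dKO, beside 6.01% and 7.89% of all genes. In dCD 2 rose and 5 fell at least 2-fold, beside 4.62% and 2.32%. Next after H2-Eb1 in chromosomal order stood the tested genes Btnl7-ps, Notch4, Gpsm3 and Pbx2. Their log2 fold changes were 0.11, -1.71, -1.09 and 0.26 in dKO and -0.89, -1.52, -0.64 and 0.29 in dCD. Tapbp lies among Daxx, Zbtb22, Rgl2, Pfdn6 and Wdr46, whose log2 fold changes in dKO were -0.30, 0.18, 0.36, -0.11 and 0.08, beside -1.10 for Tapbp itself. Next to H2-K1 on 1 side, H2-K2, a transcribed class I pseudogene, fell by 0.38 in dKO (limma adjusted p = 0.0141), opposite to H2-K1. In dCD H2-K2 had -0.26 (limma adjusted p = 0.0804). Next to H2-K1 on the other side, Ring1, a Polycomb subunit, rose by 0.48 in dKO and 0.33 in dCD, in the direction of H2-K1. Beyond H2-K2, Vps52, a subunit of a vesicle tethering complex, rose by 0.19 in dKO. Beside B2m, Patl2 measured 28.8 ± 3.15 TPM in WT, 6.64 ± 0.476 in dKO and 18.2 ± 0.823 in dCD (SD, n = 3 libraries each) and fell by 1.96 on the log2 scale in dKO (limma adjusted p = 5.14e-09) and by 0.63 in dCD (limma adjusted p = 5.77e-05), opposite to B2m.

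**Figure D5:**
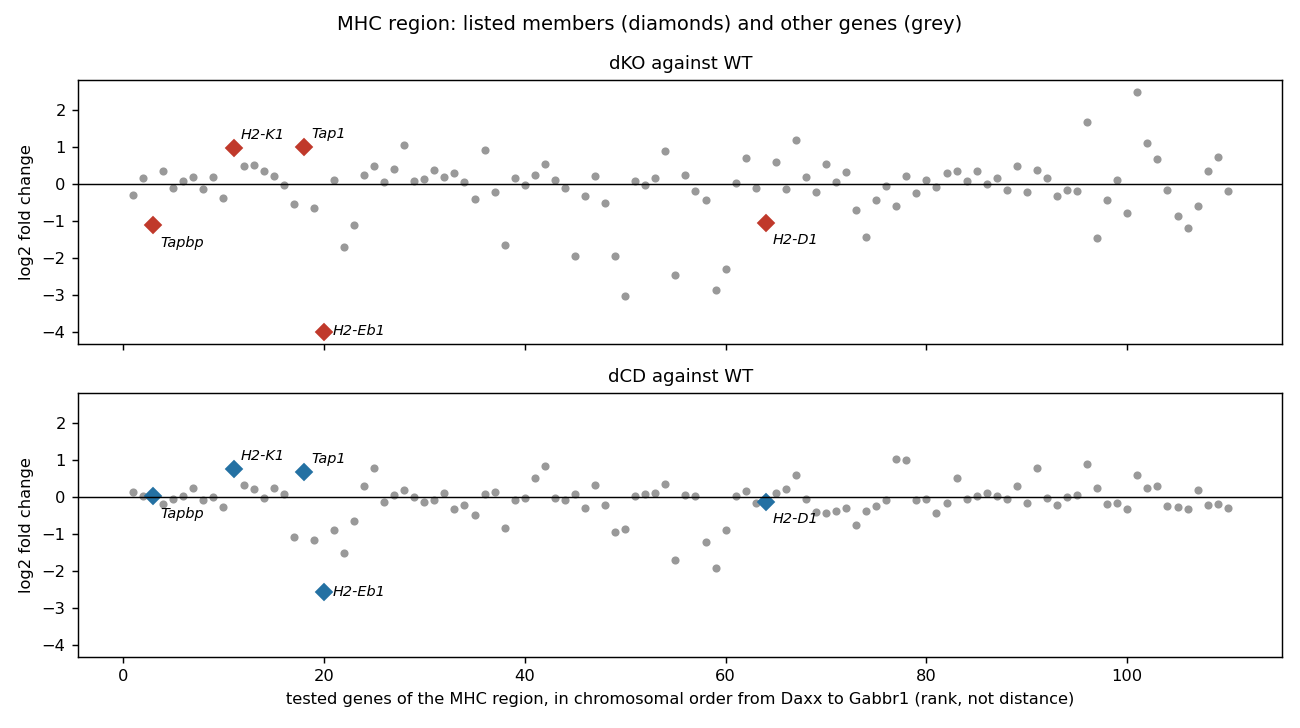
Log2 fold changes on the log2(TPM + 1) scale of the 110 tested genes between Daxx and Gabbr1, in chromosomal order (horizontal axis, rank) for dKO and dCD against WT, with the 5 MHC genes described here named. H2-Eb1 is the lowest point of the region in dKO, at -3.99, and genes above and below 0 are interleaved.

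The genes whose levels were most like each of the 7 tested genes were found by Pearson correlation of log2(TPM + 1) over the 9 libraries, without the other members of the set. For H2-K1 they were Ip6k2 (r = 0.9957) and Bmp7 (0.9948), for B2m Ndnl2 (0.9969) and Abracl (0.9963), and for Tap1 Sepw1 (0.9955) and Gas1 (0.9945). For H2-D1 they were Fkbp4 (0.9974) and Akr1b8 (0.9971), and for Tapbp Zbtb32 (0.9989) and Slc39a4 (0.9988). For H2-Eb1 they were Acox3 (0.9990) and Myo15b (0.9987), and for Cd74 Ypel2 (0.9914) and Cdc42ep3 (0.9911). The 9 points are 3 libraries of each of 3 lines, so such values mainly follow the order and spacing of the 3 lines, and they describe likeness only.

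The libraries held 21090624 to 56249770 recovered reads, and log2(TPM + 1) correlated across genes at 0.994 or more within a line and at 0.968 or less between lines. Kmt2c measured 19.7 to 21.9 TPM in WT, 7.44 to 8.0 in dKO and 25.3 to 28.6 in dCD, and Kmt2d measured 65.2 to 67.4, 80.5 to 84.8 and 54.6 to 67.8 TPM. Kmt2d RNA was thus not lower in the dKO libraries, and the edited part of each gene is not given in the labels, so a level over the whole gene does not check that label. The 9 embryonic stem cell markers were all above 1 TPM, and their sum was 15400 to 15800 TPM in WT, 8160 to 8240 in dKO and 11300 to 11600 in dCD. Their median log2 fold change was -0.51 in dKO and -0.45 in dCD, so the sums, which the most abundant markers dominate, separate the mutant lines more than the medians do. Of 14 fibroblast or feeder markers, 6 reached 1 TPM, with sums of 25.7 to 27.9, 63.1 to 66.0 and 54.2 to 55.2 TPM. The sums were higher in both mutant lines, as H2-K1, B2m and Tap1 were. Of the 6 tested markers, 4 rose and 1 (Thy1, -1.18) fell in dKO, and 6 rose in dCD. In dKO against dCD 2 of them were higher and 3 lower. The part of these markers in the H2-K1, B2m and Tap1 results was not tested. Endothelial markers, 8 genes, summed to 107 to 110, 41.5 to 44.3 and 79.2 to 82.8 TPM.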

How the data were processed

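Of 48 samples, the 9 RNA-seq libraries were used, grouped by title. The deposited table gives TPM per gene symbol and library with a gene length in bases, as made by the authors. The submitters' processing notes name HISAT2, featureCounts and DESeq2, without roles or versions, and the build mm9. The annotation, the strand setting and the handling of multi-matching reads were not given in the sources used here, so reads of overlapping or antisense genes cannot be assigned with certainty. TPM multiplied by length gave whole reads for 100% of values within 0.01, from which depths were taken.

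Genes with at least 1 TPM in at least 3 libraries (16179) were fitted with limma 3.58.1 in R 4.3.3 (trend) on log2(TPM + 1), all 9 libraries in 1 fit with 3 contrasts, two-sided, adjusted by Benjamini-Hochberg over all tested genes at 0.05. The code of the fit was also run on simulated reads with far fewer changed genes than were called here and with 1 spread for all genes. That run therefore does not bear on how sure the calls in these data are. Tables used Python 3.11.15, pandas 2.3.3, numpy 2.4.6 and scipy 1.17.1, and plots matplotlib 3.10.9. Promoter letters came from RefSeq (GRCm38.p6), matched by symbol, and neighbours from the same annotation.

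The members and the gene lists were chosen with earlier results of these data known. Besides the 10 genes, the text names from each list up to 4 called genes per contrast by smallest p with both directions present (fewer where space was short), Ciita, Nlrc5, Irf1, H2-Aa, H2-Ab1, H2-Ea, near neighbours and the 2 most alike genes. Some genes under this rule are not reported here. Alternatives were a pseudocount of 0.1, no filter, a minimum of 5 TPM, median-ratio and quantile scaling, voom on recovered reads, only the 6 libraries compared, a replicate block, a 2-fold threshold and leaving out each library. Samples of other assays were not analysed here.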

Additional observations from a re-analysis of the deposited data

How the results depend on the processing

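Of 354 alternative values of the 7 tested genes, 343 kept direction and side of the threshold, 10 lost the call (H2-D1 in dCD) and 1 turned: Tapbp in dCD ranged from -0.011 (without dCD replicate 3, limma adjusted p = 0.822) to 0.049 when 1 library was left out. The main fit called 11617, 9453 and 11220 genes in dKO against WT, dCD against WT and dKO against dCD, and 13364 by the F test. At 2-fold these were 2249, 1123 and 1774, with 6, 2 and 3 of the 7 genes. H2-D1 in dKO against dCD had -0.92 in the main fit and passed 2-fold with median-ratio scaling (-1.023). Leaving out 1 library gave 10887 to 11587, 8466 to 9348 and 10436 to 11187 genes, 12821 to 13023 by F, and 7 to 7, 4 to 5 and 7 to 7 of the 7 genes. Median-ratio scaling moved the share of higher calls from 60.4% to 49.8% in dKO against WT and from 61.0% to 48.6% in dKO against dCD, while the members kept their directions. Cd74 had no value at a minimum of 5 TPM. Replicate numbers did not pair the samples (r from -0.049 to 0.042 for same-numbered libraries). With a replicate block 11533, 9273 and 11114 genes were called, 13255 by F, and 7, 5 and 7 of the 7 genes. Genes under 1 TPM rest on few reads, and 3 libraries per line limit precision.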
